A study of Mus musculus with 48 samples.

Results

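The genes described here handle iron, zinc and copper in mouse liver: the hepcidin genes Hamp and Hamp2, the plasma iron carrier gene Trf, the transferrin receptor gene Tfrc, the iron exporter gene Slc40a1, the metal importer gene Slc39a14, and the metallothionein genes Mt1 and Mt2. They were taken by symbol from the deposited expression table, in which all 8 had a row among 14251 genes, and all 8 passed the filter on low counts that left 12688 genes. The 48 libraries came from livers of male C57BL6J mice whose drinking water held either corticosterone, at 100 ug/ml, or its vehicle, 1% ethanol, over 2 weeks (corticosterone is the chief glucocorticoid that rodents make). Within each drink, some mice ate food with atglistatin at 571 mg/kg, which blocks adipose triglyceride lipase, and the others ate the same food without it. The groups were Cort ATGLi (14 libraries, corticosterone with atglistatin), Cort CON (14 libraries, corticosterone with control food), EtOH ATGLi (10 libraries, vehicle with atglistatin) and EtOH CON (10 libraries, vehicle with control food). The labels call 9 of the 14 Cort CON mice diabetic, 1 of the 14 Cort ATGLi mice, and none of the vehicle mice. The inhibitor was given in the food and not to the liver alone, and the RNA came from whole liver pieces with all their cell types.

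Hepcidin is a peptide hormone made by hepatocytes that binds ferroportin, the exporter encoded by Slc40a1, and sends it for degradation, so that less iron enters the blood. Its gene is switched on by bone morphogenetic protein (BMP) signals when iron is plentiful and by interleukin-6 through STAT3 during inflammation. Mouse carries a second copy, Hamp2, whose product was not found to alter body iron when overexpressed in mice. Metallothioneins are small cysteine-rich proteins that bind zinc and copper, and their genes are known to answer to metals and to glucocorticoids.

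Hamp (ENSMUSG00000050440) lies on the minus strand at chr7:30942368-30944032 and Hamp2 (ENSMUSG00000056978) on the same strand at chr7:30922372-30924681, in GRCm38 with the GENCODE M21 annotation. Their promoters are shown because the copies differed in how far they moved. Each window runs from 250 bases before to 50 bases after the transcript start, 5′ to 3′ on the gene's strand, from RefSeq on GRCm38.p6 (chr7:30943980-30944279 for Hamp and chr7:30924132-30924431 for Hamp2). Capitals mark GGCGCC, the core of the BMP response element known from the hepcidin promoter, and TTCNNNGAA, the STAT site, both searched on both strands and not overlapping each other.
Hamp: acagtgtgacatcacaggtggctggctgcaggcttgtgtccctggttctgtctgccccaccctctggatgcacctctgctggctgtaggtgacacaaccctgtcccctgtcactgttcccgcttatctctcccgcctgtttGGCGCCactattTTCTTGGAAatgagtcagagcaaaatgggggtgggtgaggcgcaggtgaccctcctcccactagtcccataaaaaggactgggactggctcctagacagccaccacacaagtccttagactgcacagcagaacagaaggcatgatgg
Hamp2: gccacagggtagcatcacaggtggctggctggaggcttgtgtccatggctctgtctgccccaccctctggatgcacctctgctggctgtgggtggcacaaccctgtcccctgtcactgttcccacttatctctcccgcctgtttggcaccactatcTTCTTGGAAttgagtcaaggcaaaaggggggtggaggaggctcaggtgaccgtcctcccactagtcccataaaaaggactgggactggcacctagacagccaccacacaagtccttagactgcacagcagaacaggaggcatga
The windows aligned over 297 bases with 276 identical, an identity of 92.9%. Both held the STAT site TTCTTGGAA, which begins 97 bases before the start in Hamp and 94 bases before it in Hamp2. GGCGCC occurred once in Hamp, 109 bases before the start, and not in the Hamp2 window, where the aligned stretch carries the substitution G145A, counted from 1 at the first base of the Hamp window. Of 32851 promoters of this length in the table, 11.9% held GGCGCC and 8.3% held TTCNNNGAA. A match is a string of letters and not a measured site.

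Mt2 (ENSMUSG00000031762, chr8:94172664-94173568) and Mt1 (ENSMUSG00000031765, chr8:94179082-94180327) are neighbours on the plus strand. Their promoters are shown because they moved together. Capitals mark the metal response element core bound by the zinc sensor MTF1, searched as TGCACNC or TGCGCNC on both strands, in the windows chr8:94178839-94179138 (Mt1) and chr8:94172368-94172667 (Mt2).
Mt1: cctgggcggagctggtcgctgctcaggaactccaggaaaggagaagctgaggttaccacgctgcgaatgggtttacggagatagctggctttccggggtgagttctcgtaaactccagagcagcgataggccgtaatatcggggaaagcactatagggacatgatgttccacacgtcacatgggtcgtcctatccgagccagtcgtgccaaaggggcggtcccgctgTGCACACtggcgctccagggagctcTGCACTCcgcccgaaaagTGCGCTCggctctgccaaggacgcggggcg
Mt2: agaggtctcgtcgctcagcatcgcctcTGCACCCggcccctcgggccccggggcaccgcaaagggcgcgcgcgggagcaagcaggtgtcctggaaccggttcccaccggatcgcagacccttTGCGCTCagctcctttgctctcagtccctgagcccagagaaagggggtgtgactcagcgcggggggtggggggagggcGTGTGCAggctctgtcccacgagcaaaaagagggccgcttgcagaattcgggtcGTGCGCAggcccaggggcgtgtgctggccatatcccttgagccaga
The Mt1 and Mt2 windows aligned over only 72 bases, with 47 identical (65.3%) and 8 gap bases inside. Mt1 held 3 matches and Mt2 held 4, and 25.7% of the 32851 promoters held at least 1. The glucocorticoid response element core ACANNNTGT occurred once in the Mt1 window, 92 bases before the start, and not in the Mt2, Hamp or Hamp2 window, against 6.85% of all promoters. In mouse, hormone response elements upstream of Mt2 are known to serve both genes, and a window of this size does not reach them.

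Tfrc (ENSMUSG00000022797, chr16:32608920-32632794, plus strand) and Slc40a1 (ENSMUSG00000025993, chr1:45908068-45926523, minus strand) carry iron responsive elements in their transcripts. These stem-loops bind iron regulatory proteins when iron is short, which keeps Tfrc mRNA stable and slows translation of Slc40a1 mRNA. They are shown because they are where iron itself is known to act on these mRNAs. Capitals mark the CAGTGN loop of each match to CNNNNNCAGTGN whose following 5 bases can pair with the 5 before the loop, counting G with T as a pair, in GENCODE M21 untranslated regions (DNA letters, mRNA strand).
Slc40a1 at chr1:45925465-45925493: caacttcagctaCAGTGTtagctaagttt
Tfrc site 1 at chr16:32631219-32631247: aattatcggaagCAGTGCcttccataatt
Tfrc site 2 at chr16:32631598-32631626: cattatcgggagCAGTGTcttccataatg
Tfrc site 3 at chr16:32631663-32631691: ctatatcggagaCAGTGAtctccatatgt
Tfrc site 4 at chr16:32631710-32631738: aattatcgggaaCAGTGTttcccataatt
The Slc40a1 match was in the 5′ UTR and the 4 Tfrc matches were in the 3′ UTR. Among 21901 protein-coding genes, 1.34% had such a match anywhere in a transcript. Trf (ENSMUSG00000032554, chr9:103204001-103230444, minus strand) and Slc39a14 (ENSMUSG00000022094, chr14:70303469-70351425, minus strand) are named by their position alone.

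QuantSeq reads the 3′ ends of polyadenylated transcripts, and levels are given as CPM, counts scaled to a common library total. Total counts ran from 7449109 to 21175603 per library, and libraries of 1 group always differed by more than sampling noise (smallest chi-square per degree of freedom 6.21). Hepatocyte markers such as Alb and Apoa1 were high in every group, with median sums of 110429, 127325, 101424 and 109140 CPM over 11 genes in Cort ATGLi, Cort CON, EtOH ATGLi and EtOH CON. Cort ATGLi replicate 41 stood apart from its group, with a median correlation of 0.950 to the other 13 libraries, and 6 libraries held transcripts of pancreas (Cpa1 above 20 CPM), 1 of them in Cort CON, 2 in EtOH ATGLi and 3 in EtOH CON. Differences were tested with edgeR's quasi-likelihood test across all genes, and called where the p adjusted over all genes by Benjamini and Hochberg was at most 0.05. Fold changes are given as log2 with their standard error (SE).

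Most of the 8 genes changed with corticosterone, as did a large share of all genes. In Cort ATGLi against EtOH ATGLi 4 of the 8 rose and 2 fell, where 36.7% of 12688 genes were called (19% higher and 17.7% lower). Only Hamp2 of the 8 had ranges that did not overlap there, as in 3.14% of genes. In Cort CON against EtOH CON 5 rose and 1 fell, where 44.2% of genes were called (22.5% higher and 21.7% lower). The ranges of Hamp2, Mt1 and Mt2 did not overlap there, as in 6.11% of genes. The group with both agents was also set against the group with neither: 4 rose and 1 fell in Cort ATGLi against EtOH CON, where 43.6% of genes were called (22.2% higher and 21.4% lower), and Hamp2 did not overlap, as in 5.03% of genes.

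Atglistatin made fewer differences. Under corticosterone 1 of the 8 was higher and 4 were lower in Cort ATGLi than in Cort CON, where 11.7% of genes were called (5.19% higher and 6.47% lower). Ranges overlapped for all 8 there and did not overlap for 0.323% of genes. Under vehicle edgeR called 0 of the 8 in EtOH ATGLi against EtOH CON, where 3.13% of genes were called (1.47% higher and 1.66% lower) and 0.252% did not overlap. At an unadjusted p under 0.05 there were 3 (Hamp2, Tfrc and Mt2), DESeq2 called 1 (Mt2) and limma called 1 (Tfrc). For the interaction, which asks whether the corticosterone effect differs between the foods, 2 of the 8 were called, both negative, where 1.43% of genes were called (0.701% positive and 0.725% negative).

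The median log2 change of the 8 was 0.19 in Cort ATGLi against EtOH ATGLi and 0.45 in Cort CON against EtOH CON, beside 0.02 and 0.01 over all genes. It was -0.32 in Cort ATGLi against Cort CON and 0.17 in EtOH ATGLi against EtOH CON, beside 0.00 and 0.00 over all genes. The iron, haem, zinc and copper lists held 97 measured genes, the 8 included. They gave 23 higher and 14 lower on atglistatin food, and 24 higher and 17 lower on control food. In Cort ATGLi against Cort CON 4 were higher and 11 lower, and in EtOH ATGLi against EtOH CON 4 were higher and 1 lower. These counts, and those of the separate lists, are to be read against the shares of all genes called in the same comparisons. The 4 comparisons share libraries in pairs, so their values are set side by side and not counted as agreeing.

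Hamp2 fell with corticosterone on both foods, and Hamp moved far less. Hamp2 had 0.979, 3.61 and 10.1 CPM as its lowest, median and highest level in Cort ATGLi, and 3.32, 8.40 and 31.3 CPM in Cort CON. It had 27.6, 79.4 and 529 CPM in EtOH ATGLi and 31.5, 54.2 and 110 CPM in EtOH CON. Every corticosterone library lay below every vehicle library on the same food, although the highest Cort CON library, at 31.3 CPM, came close to the lowest EtOH CON library. In Cort CON against EtOH CON the log2 change was -2.28 ± 0.40 (SE, edgeR adjusted p = 7.0e-06), or 4.85-fold lower. It was -4.68 ± 0.44 (edgeR adjusted p = 4.8e-12), or 25.6-fold lower, in Cort ATGLi against EtOH ATGLi, and -3.99, or 15.9-fold lower, without EtOH ATGLi replicate 14, the highest Hamp2 library. The 2 changes differed by -2.40 ± 0.58 on the log2 scale (edgeR adjusted p = 0.0213 for the interaction). Without EtOH ATGLi replicate 14 the difference was -1.72 with an adjusted p of 0.0814. It also did not pass with limma (-1.43), without the mice labelled diabetic (-2.27) or without the 6 libraries with pancreas transcripts (-2.06).

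Hamp had 378, 575 and 752 CPM as its lowest, median and highest level in Cort ATGLi, and 166, 506 and 1011 CPM in Cort CON. In EtOH ATGLi it had 455, 800 and 2407 CPM, and in EtOH CON 350, 740 and 1323 CPM. The groups overlap on both foods, and the spread within Cort CON (SD 258 CPM, n = 14) was wider than within Cort ATGLi (SD 114 CPM, n = 14). The log2 change with corticosterone was -0.43 ± 0.24 on control food (Cort CON against EtOH CON, edgeR adjusted p = 0.139). It was -0.71 ± 0.24 on atglistatin food (Cort ATGLi against EtOH ATGLi, edgeR adjusted p = 0.0160), where all 14 Cort ATGLi libraries lay below the EtOH ATGLi mean. Without EtOH ATGLi replicate 14, the highest Hamp library, that change was -0.42 with an adjusted p of 0.136, and with limma it was -0.36 and did not pass.

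**Figure D1:**
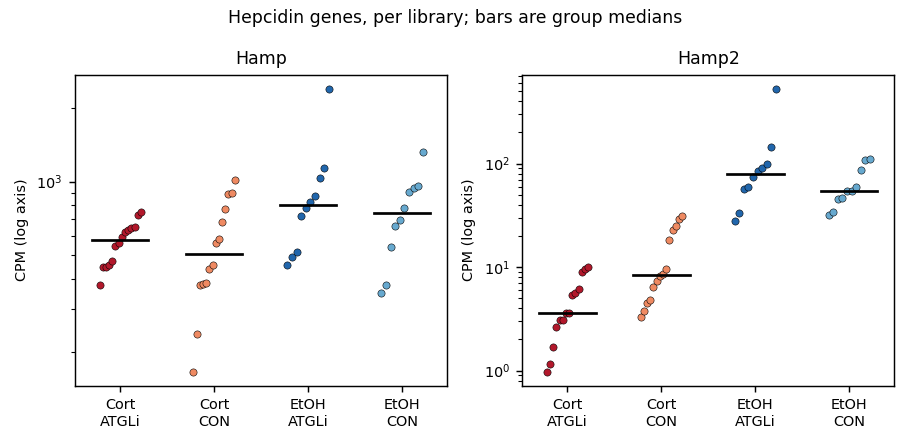
Hamp and Hamp2 in CPM on log axes in each of 48 libraries, by group, with bars at group medians. Hamp medians lie between 506 and 800 CPM in all 4 groups, while Hamp2 medians are 3.61 and 8.40 CPM in the corticosterone groups against 79.4 and 54.2 CPM in the vehicle groups.

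Between the foods under corticosterone, Hamp2 was lower in Cort ATGLi than in Cort CON by a log2 change of -1.47 ± 0.40 (edgeR adjusted p = 0.00948), with all 14 Cort ATGLi libraries below the Cort CON mean. Hamp did not pass there (0.02 ± 0.22, edgeR adjusted p = 0.974). Under vehicle neither hepcidin gene passed between the foods, with Hamp2 at 0.93 ± 0.43 (edgeR adjusted p = 0.261, and 0.25 without EtOH ATGLi replicate 14) and Hamp at 0.29 ± 0.26 (edgeR adjusted p = 0.622). The log2 change of Hamp2 in Cort ATGLi against EtOH CON was -3.75 ± 0.43 (edgeR adjusted p = 5.5e-10), with no overlap, and that of Hamp was -0.41 ± 0.24 (edgeR adjusted p = 0.159).

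Hamp2 made up a smaller part of the hepcidin counts under corticosterone. Its share of the counts of both genes had a median of 0.625% in Cort ATGLi (0.219% to 1.60%) and 1.62% in Cort CON (0.483% to 7.10%). In EtOH ATGLi the median was 8.24% (2.82% to 24.3%) and in EtOH CON 7.38% (3.96% to 20.0%). Cort ATGLi and EtOH ATGLi did not overlap in this share, whereas Cort CON and EtOH CON did. The copies share sequence, since 16.6% of the 50-base stretches in the last 500 bases of Hamp transcripts also occur in Hamp2, and 11.2% the other way. How the authors counted reads that match both is not given in the sources used here, so the low Hamp2 levels in particular are uncertain. Across the 48 libraries the levels of the copies had a Spearman rho of 0.34, and of 0.11 for deviations from group means.

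**Figure D2:**
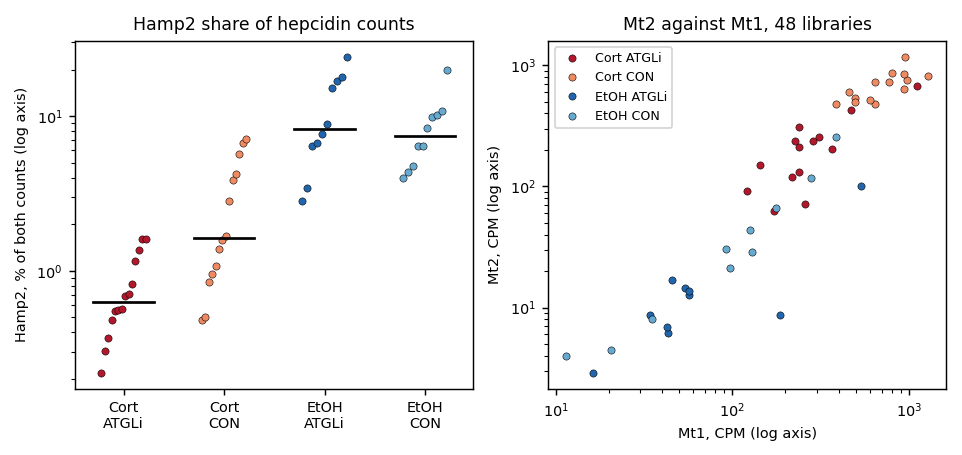
Left, Hamp2 as a percentage of the counts of both hepcidin genes per library on a log axis, with bars at group medians; right, Mt2 against Mt1 in CPM on log axes, 1 point per library. The Hamp2 share has medians of 0.625% and 1.62% in the corticosterone groups against 8.24% and 7.38% in the vehicle groups, and Mt2 lies closer to Mt1 in the corticosterone libraries.

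Markers of macrophages and lymphocytes were lower in the corticosterone groups, in which Hamp2 was lower, with 1 library apart. The summed level of 12 Kupffer cell and macrophage markers had medians of 121 CPM in Cort ATGLi (84.7 to 448) and 147 CPM in Cort CON (102 to 235), against 303 CPM in EtOH ATGLi (206 to 387) and 365 CPM in EtOH CON (261 to 487). The highest Cort ATGLi sum, 448 CPM, was that of replicate 41, which had the lowest Hamp2 of all 48 libraries (0.979 CPM), and the next highest in that group was 187 CPM. On each food 10 of the 12 fell and none rose, where 17.7% and 21.7% of all genes were lower on atglistatin and control food. Clec4f (-1.19 on both foods) and Cd5l (-1.42 on atglistatin food and -1.60 on control food) were among the 10. The 6 measured lymphocyte and leukocyte markers summed to medians of 4.65 and 5.35 CPM in Cort ATGLi and Cort CON, against 44.6 and 48.5 CPM in EtOH ATGLi and EtOH CON, and Trbc2 and Cd74 reached 0 in some corticosterone libraries. In a bulk sample, fewer cells of a type and less RNA per cell cannot be told apart. Over all 48 libraries the gene whose level ranked most like Hamp2 was H2-Ab1, an MHC class II gene (rho 0.89 over all libraries, 0.56 within groups), followed by Serpina6, which encodes the corticosteroid binding globulin (0.89 and 0.61), Inmt (0.89 and 0.58), Col14a1 (0.87 and 0.39) and Otc, a urea cycle enzyme of hepatocytes (0.86 and 0.47), among 8244 genes compared. The part of the immune cell transcripts in the Hamp2 difference was not tested.

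Genes that set hepcidin expression were called no more often than genes in general. Of 24 measured genes of the BMP, HFE and interleukin-6 arms, 2 rose and 6 fell in Cort ATGLi against EtOH ATGLi, and 3 rose and 6 fell in Cort CON against EtOH CON, beside 36.7% and 44.2% of all genes called in these comparisons. Bmp2, a ligand made by sinusoidal endothelium, fell by 0.50 and 0.33 on the log2 scale on atglistatin and control food. Markers of that endothelium fell in the same comparisons, 7 of 10 on atglistatin food and 5 of 10 on control food with none rising, and summed to medians of 245 and 271 CPM in Cort ATGLi and Cort CON, against 340 and 338 CPM in EtOH ATGLi and EtOH CON. Of 9 stellate cell markers, 4 and 5 fell on atglistatin and control food and none rose. The part of these cells in the Bmp2 difference was not tested. Smad1, which carries the BMP signal to the nucleus, fell by 0.30 and 0.45, and Id1, a BMP target, fell by 0.68 and 0.81. Hjv, the BMP co-receptor hemojuvelin, rose by 0.28 on both foods. The transferrin sensor Tfr2 (0.03 on both foods), the hemojuvelin protease Tmprss6 (0.09 and -0.02) and the feedback inhibitor Smad7 (-0.27 and -0.09) did not pass. Bmp6 was looked for but not found by symbol among the 14251 genes, so it was not tested.

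In the interleukin-6 arm, Il6ra, the receptor, rose by 1.16 in Cort CON against EtOH CON, while its partner Il6st fell by 0.54 and the transcription factor Stat3 by 0.44. On atglistatin food Il6ra was at 0.45 and Stat3 at -0.15, neither of which passed, and Il6st fell by 0.26. Between the foods under corticosterone, Il6ra and Neo1, a hemojuvelin partner, fell by 0.53 and 0.36. Hamp itself ranked most like Nelfb (rho 0.62 over 48 libraries, 0.48 within groups), Albfm1 (0.60 and 0.57), Prr12 (0.58 and 0.41), Atoh8 (0.57 and 0.56), a BMP and SMAD target, and Arhgef1 (0.56 and 0.38).

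Trf, the transcript of transferrin, the iron carrier of plasma, changed little. Its lowest, median and highest levels were 4433, 6699 and 8546 CPM in Cort ATGLi, and 5502, 8335 and 10755 CPM in Cort CON. They were 4455, 6458 and 7597 CPM in EtOH ATGLi, and 4862, 7295 and 10202 CPM in EtOH CON. All 4 groups overlap. Corticosterone gave log2 changes of 0.10 ± 0.12 on atglistatin food (edgeR adjusted p = 0.549) and 0.17 ± 0.12 on control food (edgeR adjusted p = 0.243). Cort ATGLi was lower than Cort CON by -0.31 ± 0.11, just inside the threshold (edgeR adjusted p = 0.04996), and that call was kept in only 9 of the 28 fits that left out 1 library. Trf ranked most like Igfbp4 (rho 0.79 over 48 libraries, 0.83 within groups), Serpinf1 (0.78 and 0.78) and C3 (0.76 and 0.79). Slc25a48 (0.76 and 0.73) and Apon (0.75 and 0.72) followed.

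Tfrc, the receptor that takes up transferrin-bound iron, rose with corticosterone on control food. Its lowest, median and highest levels were 16.6, 27.8 and 30.9 CPM in Cort ATGLi, and 19.1, 31.3 and 62.0 CPM in Cort CON. They were 20.7, 28.5 and 37.1 CPM in EtOH ATGLi, and 12.1, 17.98 and 38.3 CPM in EtOH CON. EtOH CON had the lowest median, and each group overlaps the others. In Cort CON against EtOH CON the log2 change was 0.64 ± 0.16 (edgeR adjusted p = 0.00075), with 12 of 14 Cort CON libraries above the EtOH CON mean. It was -0.17 ± 0.15 in Cort ATGLi against EtOH ATGLi (edgeR adjusted p = 0.391).

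The corticosterone effect on Tfrc differed between the foods by -0.81 ± 0.22 (edgeR adjusted p = 0.0428 for the interaction), a call kept in 29 of 48 fits without 1 library and lost without the mice labelled diabetic (-0.67). Between the foods Tfrc did not pass, at 0.49 ± 0.17 under vehicle (EtOH ATGLi against EtOH CON, edgeR adjusted p = 0.100) and -0.33 ± 0.14 under corticosterone (Cort ATGLi against Cort CON, edgeR adjusted p = 0.126). Without EtOH CON replicate 15, the highest library of its group and 1 of the 6 with pancreas transcripts (25.6 CPM of Cpa1), the first of these was 0.63 with an adjusted p of 0.0166. It was 0.73, and called, without all 6. Tfrc ranked most like Creld2 (rho 0.55 over 48 libraries, 0.50 within groups), Dnaja1 (0.53 and 0.51), Ubxn4 (0.51 and 0.36), Lrrc59 (0.51 and 0.43) and Srprb (0.49 and 0.35).

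Iron regulatory proteins act on the stem-loops printed above. Ireb2, which encodes iron regulatory protein IRP2, fell by 0.29 in Cort ATGLi against EtOH ATGLi and by 0.46 in Cort CON against EtOH CON. Fbxl5, whose product marks IRP2 for degradation when iron is plentiful, fell by 0.24 on both foods. Epas1, which encodes the hypoxia factor HIF-2α, rose by 0.29 and 0.51 on atglistatin and control food.

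Slc39a14, which encodes the ZIP14 importer of zinc, manganese and of iron not bound to transferrin, rose with corticosterone on both foods. Its levels were 33.8, 43.4 and 52.6 CPM (lowest, median and highest) in Cort ATGLi, and 28.9, 48.99 and 65.8 CPM in Cort CON. They were 27.2, 34.6 and 43.1 CPM in EtOH ATGLi, and 23.6, 31.7 and 37.2 CPM in EtOH CON. On control food 12 of 14 Cort CON libraries exceeded every EtOH CON library, and on atglistatin food 7 of 14 Cort ATGLi libraries exceeded every EtOH ATGLi library. The log2 changes were 0.62 ± 0.10 on control food (edgeR adjusted p = 4.6e-07) and 0.29 ± 0.09 on atglistatin food (edgeR adjusted p = 0.0132), and their difference did not pass (-0.33 ± 0.13, edgeR adjusted p = 0.254). Slc39a14 ranked most like Slc37a4, the glucose 6-phosphate transporter (rho 0.84 over 48 libraries, 0.53 within groups), and Pik3r1 (0.83 and 0.58). Mgat2 (0.83 and 0.60), Fkbp5, a glucocorticoid receptor target (0.83 and 0.56), and Lpin1 (0.82 and 0.46) followed.

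Slc40a1, the ferroportin transcript, was highest when both agents were given. Its levels were 108, 130 and 159 CPM (lowest, median and highest) in Cort ATGLi, and 69.2, 108 and 143 CPM in Cort CON. They were 80.5, 91.8 and 126 CPM in EtOH ATGLi, and 67.4, 80.3 and 121 CPM in EtOH CON. All 14 Cort ATGLi libraries lay above the means of Cort CON, EtOH ATGLi and EtOH CON, and the ranges still overlapped. Cort ATGLi exceeded EtOH ATGLi by 0.44 ± 0.10 (edgeR adjusted p = 0.00072), Cort CON by 0.31 ± 0.09 (edgeR adjusted p = 0.0226) and EtOH CON by 0.59 ± 0.11 (edgeR adjusted p = 8.1e-06). These comparisons share the Cort ATGLi libraries. Cort CON exceeded EtOH CON by 0.28 ± 0.10 (edgeR adjusted p = 0.0263), a call kept in 13 of 24 fits without 1 library and lost without the mice labelled diabetic (0.19) or the libraries with pancreas transcripts (0.27). Kupffer cells also express Slc40a1, and their markers were lower in the corticosterone groups, in which Slc40a1 was higher. Slc40a1 ranked most like Tm4sf4 (rho 0.77 over 48 libraries, 0.63 within groups), Ilrun (0.74 and 0.56) and Rabac1 (0.73 and 0.48). Acot1 (0.73 and 0.39) and Tmem259 (0.73 and 0.54) followed.

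**Figure D3:**
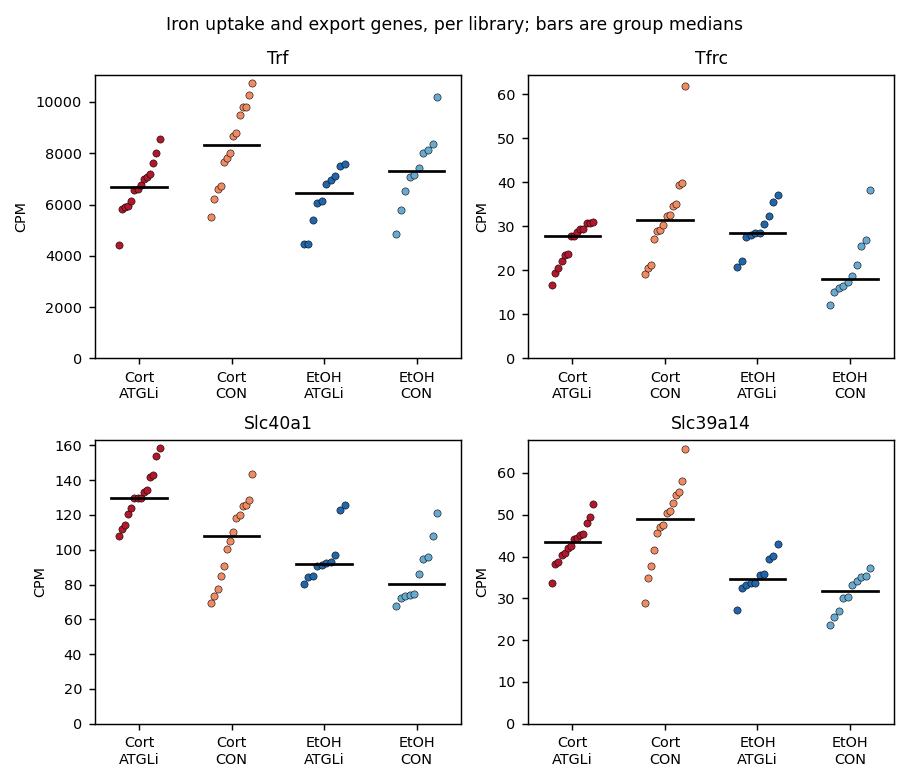
Trf, Tfrc, Slc40a1 and Slc39a14 in CPM on axes that start at 0, 1 point per library, with bars at group medians. Slc40a1 has its highest median in Cort ATGLi (130 CPM), Slc39a14 in Cort CON (48.99 CPM), and Tfrc its lowest in EtOH CON (17.98 CPM).

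Other genes of iron uptake, storage and release included some of much larger change. Of 14 measured genes of iron uptake, Tfrc and Slc39a14 included, 4 rose and 2 fell on atglistatin food. On control food 4 rose and 1 fell. Among all genes 19% were higher and 17.7% lower on atglistatin food, and 22.5% and 21.7% on control food. The same shares stand beside the storage and export counts below. Lcn2, whose product binds bacterial iron carriers and rises in the acute phase, rose by 4.22 on atglistatin food and by 4.87 on control food. Its highest Cort ATGLi library, replicate 41, had 465 CPM against a group median of 20.3 CPM, and without it the change on atglistatin food was 2.90 (edgeR adjusted p = 1.7e-06). Scara5, a receptor for ferritin, rose by 3.82 and 3.33. Of 11 genes of storage and export, Slc40a1 included, 4 rose and none fell on atglistatin food, and 4 rose and 1 fell on control food. Fth1, the heavy chain of ferritin, rose by 0.52 and 0.87, while the light chain Ftl1 did not pass (0.11 and 0.25), and the ferroxidase Cp rose by 0.72 and 0.63. Hmox1, the haem oxygenase that frees iron from haem and is abundant in macrophages, fell by 0.67 on control food and was at -0.63, which did not pass, on atglistatin food.

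Among 14 genes of haem synthesis and transport, 2 rose and 2 fell on atglistatin food, and 2 rose and 4 fell on control food. Of all genes 36.7% and 44.2% were called in these comparisons. Hp, the haemoglobin binding protein haptoglobin, rose by 1.19 and 1.17, and Cpox rose by 0.53 and 0.54. Fech, the enzyme that inserts iron into haem, fell by 0.39 and 0.40, and Alad, an early enzyme of the same route, fell by 0.33 and 0.52. The 6 measured erythroid markers, mostly globins, had a median sum of 1411 CPM in Cort ATGLi and 2131 CPM in Cort CON, against 1399 and 1404 CPM in EtOH ATGLi and EtOH CON, with wide overlap. Of the 6, 3 rose and 1 fell in Cort CON against EtOH CON, and none was called in Cort ATGLi against EtOH ATGLi. In Cort ATGLi against Cort CON 1 fell and none rose, where 11.7% of all genes were called. In EtOH ATGLi against EtOH CON 1 fell and none rose, where 3.13% were called.

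Mt1 and Mt2 rose with corticosterone on both foods, and their levels were lower in Cort ATGLi than in Cort CON. Mt1 had 121, 240 and 1105 CPM as its lowest, median and highest level in Cort ATGLi, and 386, 709 and 1288 CPM in Cort CON. It had 16.2, 49.7 and 536 CPM in EtOH ATGLi, and 11.5, 111 and 384 CPM in EtOH CON. On control food the groups did not overlap, although the lowest Cort CON library, at 386 CPM, was close to the highest EtOH CON library, at 384 CPM. On atglistatin food they overlapped through the highest EtOH ATGLi libraries, replicate 14 at 536 CPM and the next at 186 CPM. The log2 change was 2.46 ± 0.48 in Cort CON against EtOH CON (edgeR adjusted p = 3.3e-05) and 1.55 ± 0.46 in Cort ATGLi against EtOH ATGLi (edgeR adjusted p = 0.0062), or 2.41 without EtOH ATGLi replicate 14.

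Mt2 had 62.7, 206 and 670 CPM as its lowest, median and highest level in Cort ATGLi, and 477, 681 and 1179 CPM in Cort CON. It had 2.89, 10.7 and 99.8 CPM in EtOH ATGLi, and 3.99, 29.8 and 257 CPM in EtOH CON. On control food the groups did not overlap, and on atglistatin food 11 of 14 Cort ATGLi libraries exceeded every EtOH ATGLi library, the overlap coming from EtOH ATGLi replicate 14 alone. The log2 change was 3.57 ± 0.55 on control food (Cort CON against EtOH CON, edgeR adjusted p = 5.0e-07) and 3.56 ± 0.55 on atglistatin food (Cort ATGLi against EtOH ATGLi, edgeR adjusted p = 1.0e-06), each 11.8-fold. These folds rest in part on single vehicle libraries: without EtOH CON replicate 10 the fold on control food was 19.1, and without EtOH ATGLi replicate 14 that on atglistatin food was 22.3. The interaction was 0.00 ± 0.80 for Mt2 and -0.90 ± 0.62 for Mt1 (edgeR adjusted p = 1.00 and 0.630). For Mt2 it was 0.92 without EtOH ATGLi replicate 14 and -0.72 without EtOH CON replicate 10, and for Mt1 it was -0.05 without EtOH ATGLi replicate 14, none of which passed.

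**Figure D4:**
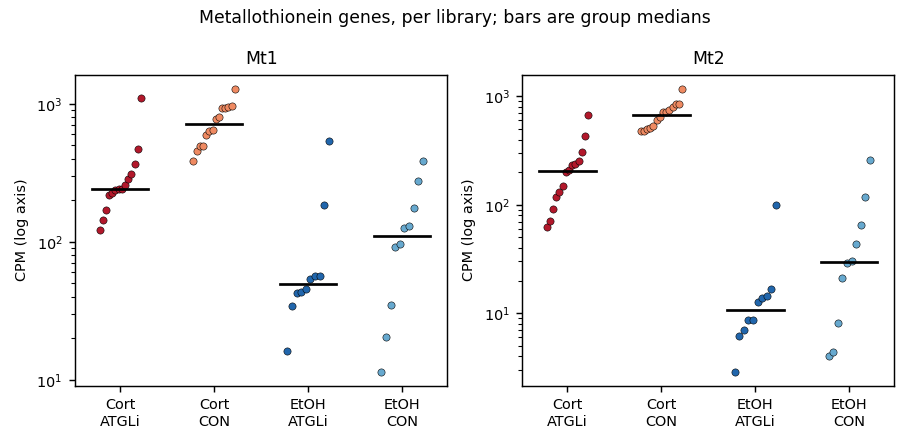
Mt1 and Mt2 in CPM on log axes in each of 48 libraries, by group, with bars at group medians. Medians of Mt1 are 240, 709, 49.7 and 111 CPM and those of Mt2 are 206, 681, 10.7 and 29.8 CPM in Cort ATGLi, Cort CON, EtOH ATGLi and EtOH CON.

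Between the foods under corticosterone, Mt1 was lower in Cort ATGLi than in Cort CON by -1.24 ± 0.40 (2.36-fold, edgeR adjusted p = 0.0359) and Mt2 by -1.60 ± 0.44 (3.04-fold, edgeR adjusted p = 0.0111), and 13 of 14 Cort ATGLi libraries lay below every Cort CON library in Mt2. Cort ATGLi replicate 41 had the highest Mt1 and Mt2 of its group, and without it the changes were -1.55 and -1.84. Under vehicle neither passed between the foods, with Mt1 at -0.33 ± 0.47 (edgeR adjusted p = 0.789) and Mt2 at -1.60 ± 0.53 (edgeR adjusted p = 0.0876). Without EtOH ATGLi replicate 14 these were -1.19 for Mt1, which did not pass, and -2.52 for Mt2 with an adjusted p of 0.0022, and without EtOH CON replicate 10 Mt2 was at -0.90. With both agents set against neither, in Cort ATGLi against EtOH CON, Mt1 was higher by 1.22 ± 0.45 (edgeR adjusted p = 0.0255) and Mt2 by 1.96 ± 0.51 (edgeR adjusted p = 0.0014), and without Cort ATGLi replicate 41 the Mt1 change was 0.90 with an adjusted p of 0.0832. Without EtOH CON replicate 10 the Mt2 change was 2.64.

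The metallothionein genes moved together but not in a constant ratio. Their levels had a Spearman rho of 0.95 over the 48 libraries and 0.74 for deviations from group means, the highest of the 28 pairs of members in both. The count of Mt2 per count of Mt1 had a median of 0.790 in Cort ATGLi (0.275 to 1.29) and 0.971 in Cort CON (0.627 to 1.31), against 0.205 in EtOH ATGLi (0.0469 to 0.368) and 0.339 in EtOH CON (0.216 to 0.668). No 50-base stretch in the last 500 bases of either gene's transcripts occurs in the other, so no such stretch matches both exactly. Matches with mismatches were not looked for. Lcn2 ranked most like both, with a rho of 0.88 for Mt1 and 0.93 for Mt2 (0.50 and 0.54 within groups). For Mt2, Lbp, an acute phase protein that binds bacterial lipopolysaccharide, followed (0.89, and 0.55 within groups).

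Markers of the acute phase moved with the metallothioneins in part. Their 16 genes summed to medians of 15573 CPM in Cort ATGLi and 19142 CPM in Cort CON, against 13917 CPM in EtOH ATGLi and 16773 CPM in EtOH CON. None of the 16 rose and 7 fell in Cort ATGLi against Cort CON, where 6.47% of all genes were lower. In Cort CON against EtOH CON 7 rose and 3 fell (22.5% and 21.7% of all genes). In Cort ATGLi against EtOH ATGLi 5 rose and 2 fell (19% and 17.7% of all genes). In Cort ATGLi against EtOH CON, where Mt1 and Mt2 rose, 4 of the 16 rose and 9 fell (22.2% and 21.4% of all genes). Of 12 known glucocorticoid receptor targets, 9 rose and none fell in Cort CON against EtOH CON, where 22.5% of all genes were higher. In Cort ATGLi against EtOH ATGLi 6 rose and 1 fell, where 19% of all genes were higher and 17.7% lower. In Cort ATGLi against Cort CON none rose and 1 fell, where 6.47% of all genes were lower. The part of these targets and of the acute phase genes in the metallothionein differences was not tested.

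Of 19 measured genes of metallothionein and zinc handling, Mt1 and Mt2 included, 8 rose and none fell on atglistatin food, and 8 rose and 1 fell on control food. In these comparisons 36.7% and 44.2% of all genes were called (19% and 22.5% higher, 17.7% and 21.7% lower). The number called in either direction is near that of genes in general, but nearly all of the calls were rises. Mtf1, the zinc sensor that binds metal response elements, rose by 0.43 and 0.36. Slc39a5, an importer of zinc on the basolateral side, rose by 0.90 and 2.05, and in EtOH ATGLi against EtOH CON by 1.51. It was scarce, with medians of 1.10, 0.721, 0.518 and 0.246 CPM in Cort ATGLi, Cort CON, EtOH ATGLi and EtOH CON, and its highest EtOH ATGLi library, replicate 6, also held the most Cpa1 (998 CPM). Without the 6 libraries that held pancreas transcripts, the change of Slc39a5 between the foods under vehicle was 1.07 and did not pass (edgeR adjusted p = 0.349). Slc30a10, known as a manganese exporter, rose by 0.60 and 0.92 on atglistatin and control food and fell by 0.50 in Cort ATGLi against Cort CON. The zinc exporter Slc30a1, itself an MTF1 target, rose by 0.32 on atglistatin food and was at 0.17, which did not pass, on control food, and Slc39a4 passed on neither (-0.06 and -0.11). Of 9 genes of copper handling, 2 rose on atglistatin food, and 2 rose and 1 fell on control food, with the copper chaperone Atox1 up by 0.37 and 0.44.

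**Figure D5:**
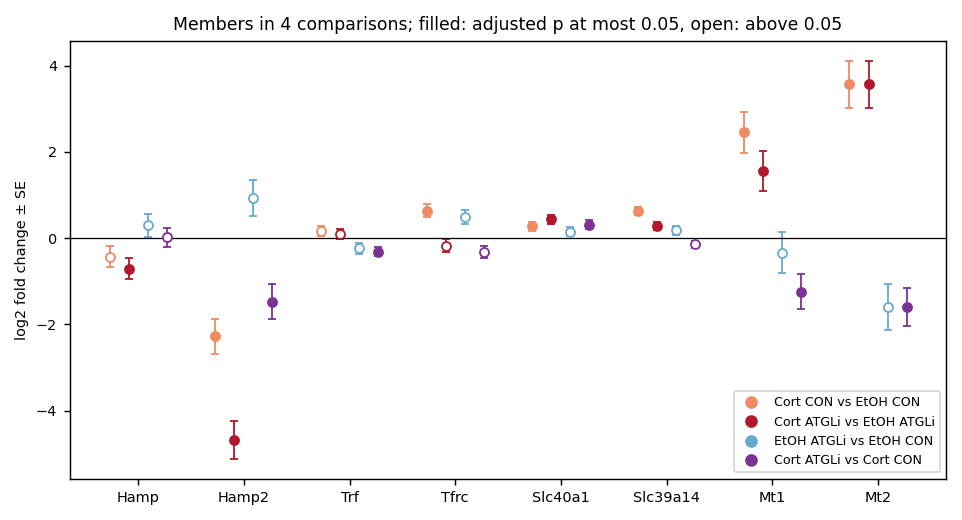
The log2 fold change of each gene with its SE in 4 comparisons, filled where the edgeR adjusted p was at most 0.05. Hamp2, Mt1 and Mt2 have the largest changes with corticosterone, and open symbols mark all 8 genes in EtOH ATGLi against EtOH CON.

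Within Cort CON, the 9 mice labelled diabetic and the 5 labelled nondiabetic did not separate in these genes. The label did not follow fed glucose throughout. Cort CON replicate 36, labelled nondiabetic, had a fed glucose of 242, above the 212 of Cort ATGLi replicate 26, labelled diabetic. Hamp2 averaged 13.3 ± 11.6 CPM in diabetic mice and 12.7 ± 7.44 CPM in nondiabetic mice (SD), and Mt2 averaged 641 ± 143 CPM and 772 ± 267 CPM in diabetic and nondiabetic mice. Hamp averaged 537 ± 260 CPM in diabetic mice and 599 ± 281 CPM in nondiabetic mice. EdgeR called 0 of 12003 genes (0%), with 448 at an unadjusted p under 0.05, 0 of them among the 8, and DESeq2 and limma also called 0.

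The diabetic label also runs with the foods under corticosterone, 1 mouse in Cort ATGLi against 9 in Cort CON. With the mice labelled diabetic left out (13 Cort ATGLi against 5 Cort CON libraries), the changes between the foods were -1.34 for Hamp2, -0.22 for Trf, 0.39 for Slc40a1, -1.17 for Mt1 and -1.73 for Mt2. None of these then passed (adjusted p 0.105, 0.484, 0.105, 0.288 and 0.108). Within Cort ATGLi, the slope on log2 insulin called 5.92% of 12502 genes (2.01% higher and 3.91% lower with insulin) and 0 of the 8, with 1 of the 8 (Mt1, -0.32 per log2 unit of insulin) at an unadjusted p under 0.05, and DESeq2 and limma called 0 of the 8. The genes called numbered 5 without replicate 41, the library with the lowest insulin, and 477 without replicate 26.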

How the data were processed

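Libraries were made with Lexogen QuantSeq from RNA of powdered, flash-frozen liver and read from 1 end for 50 bases, per the labels' protocols. The authors deposited a table of raw counts for 14251 genes in 48 libraries, with GRCm38, R 3.6 and DESeq2 1.24.0 named in the submitters' processing notes. Which aligner, counter, annotation and strand setting they used is not given in the sources used here. A table of normalized signal values (counts divided by a size factor per library) was also deposited and was used for gene symbols only. All per-sample columns were mapped to labelled samples.

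All 48 libraries entered 1 fit in edgeR 4.0.16 (R 4.3.3) with a mean per group, after filterByExpr (minimum count 10, minimum total 15) and TMM scaling, and contrasts were tested by quasi-likelihood. Diabetic against nondiabetic mice and the insulin slope were fitted within their own group. Adjusted p is that of Benjamini and Hochberg over all genes tested. CPM are counts over the TMM-adjusted library size. Libraries have glucose and insulin labels of their own, and beyond that nothing says that they are separate mice, so p-values measure the spread between these libraries. The labels give no batch. The test was also run on simulated counts with known fold changes, in which far fewer genes changed than were called with corticosterone. The outcome of that run is not given here, and nothing is concluded from it.

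Alternatives were RLE factors, DESeq2 1.42.0, limma 3.58.1 (voom with sample weights), no filter, the compared groups alone, leaving out diabetic mice, each library, or the 6 libraries with Cpa1 above 20 CPM, and a replicate block. Leaving out those 6 together with Cort ATGLi replicate 41 was added after the data were seen. All 8 genes are reported whatever their values. From each of the iron, haem, zinc and copper lists the rule allowed up to 4 called genes with the smallest p per comparison, plus a short set of preset genes, and for each of the 8 the 5 genes with the highest Spearman rho at a mean of at least 5 CPM. Not all of these are named, and Atoh8 is among the 5 for Hamp. The 8 genes and all lists were chosen with earlier results of these data known. Promoters are from RefSeq (GRCm38.p6) and transcripts from GENCODE M21.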

Additional observations from a re-analysis of the deposited data

Results flagged for a closer look

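EtOH ATGLi replicate 14 lay far above the rest of its group in 4 genes. It had 2407 CPM of Hamp (next highest 1142), 529 CPM of Hamp2 (next highest 146), 536 CPM of Mt1 (next highest 186) and 99.8 CPM of Mt2 (next highest 16.8). EtOH CON replicate 10 stood apart in Mt2, with 257 CPM (next highest 118), and it is 1 of the 6 libraries with pancreas transcripts (32.6 CPM of Cpa1). EtOH ATGLi replicate 14 is not among those 6. The gap to the next library was over the critical share of the group's range in these 5 of 16 sets of 10 libraries looked at. The rule assumes normal values and was applied to CPM without logs, which were skewed here. In 4 of the 5 sets the library is the same, so the 5 are not set against a chance rate.

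The effect of corticosterone differed between the foods for Hamp2, by -2.40 on the log2 scale (Cort ATGLi against EtOH ATGLi, minus Cort CON against EtOH CON), and for Tfrc, by -0.81 (edgeR interaction, adjusted p = 0.0213 and 0.0428). For Hamp2 the direction was lower with corticosterone on both foods, whereas Tfrc passed on control food and not on atglistatin food. Without EtOH ATGLi replicate 14 the Hamp2 difference was -1.72 (edgeR adjusted p = 0.0814), and limma did not call it. Neither Hamp2 nor Tfrc was called for the interaction without the mice labelled diabetic.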

How the results depend on the processing

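Every setting gave Hamp2, Mt1 and Mt2 the same direction and call in Cort ATGLi against EtOH ATGLi and in Cort CON against EtOH CON, and no scaling moved the median of all genes by over 0.1. With the mice labelled diabetic left out, genes called numbered 3614 in Cort CON against EtOH CON, 609 in Cort ATGLi against Cort CON and 76 for the interaction. Slc40a1 was then 0.19 in Cort CON against EtOH CON, and in Cort ATGLi against Cort CON Hamp2 was -1.34, Trf -0.22, Slc40a1 0.39, Mt1 -1.17 and Mt2 -1.73, while the interaction was -2.27 for Hamp2 and -0.67 for Tfrc, none of them called. Fewer mice were compared there. Without the 6 libraries with Cpa1 above 20 CPM, 207 genes were called in EtOH ATGLi against EtOH CON and 64 for the interaction. Slc40a1 was 0.27 (Cort CON against EtOH CON), Trf -0.29 (Cort ATGLi against Cort CON) and Hamp2 -2.06 (interaction), no longer called, and Tfrc was 0.73 (EtOH ATGLi against EtOH CON) and 0.56 (Cort ATGLi against EtOH CON), both called. Leaving out Cort ATGLi replicate 41 as well gave 109 genes for the interaction and, in the same order, 0.27, -0.26, -1.97, 0.74 and 0.57. Limma called 899 genes in EtOH ATGLi against EtOH CON, 359 for the interaction and 9 for the insulin slope. With limma Hamp was -0.36 in Cort ATGLi against EtOH ATGLi and Hamp2 -1.43 for the interaction, not called, and Tfrc 0.64 (EtOH ATGLi against EtOH CON) and 0.43 (Cort ATGLi against EtOH CON), called. DESeq2 called Mt2 in EtOH ATGLi against EtOH CON at -1.62. With the compared groups alone Slc40a1 was 0.26 in Cort CON against EtOH CON, not called, and Hamp -0.43 in Cort ATGLi against EtOH CON, called. Without the 2 libraries farthest in insulin, edgeR's slope called 0 genes. The slope of Lcn2 on log2 insulin within Cort ATGLi was -0.79 and called in the main fit (edgeR adjusted p = 0.0170). Without those 2 libraries it turned to 0.36, as it did with limma (0.25) and without replicate 41 (0.39, against -0.87 without replicate 26).

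Leaving out 1 library at a time changed some calls. Slc40a1 ran from 0.23 to 0.33 in Cort CON against EtOH CON, and Hamp from -0.79 to -0.42 in Cort ATGLi against EtOH ATGLi. In EtOH ATGLi against EtOH CON Tfrc ran from 0.42 to 0.63 and Mt2 from -2.52 to -0.90. Trf ran from -0.36 to -0.28, Slc40a1 from 0.27 to 0.34 and Mt1 from -1.55 to -1.17 in Cort ATGLi against Cort CON. The interaction ran from -2.54 to -1.72 for Hamp2 and from -0.96 to -0.72 for Tfrc. Tfrc ran from 0.24 to 0.46 and Mt1 from 0.90 to 1.53 in Cort ATGLi against EtOH CON, and the genes called by the insulin slope ran from 5 to 892. The cause of these changes was not tested beyond the library left out.

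Some title numbers recur between groups, and their libraries did not deviate together (correlation -0.117 to 0.0357), so they were not treated as pairs. What the numbers mark is not given, and so few correlations cannot exclude a shared cage or day. A replicate block on these numbers gave 4655 called genes in Cort ATGLi against EtOH ATGLi (4652 without it) and 364 in EtOH ATGLi against EtOH CON (397 without it), and changed the call of none of the 8 genes in either. Depth limits Hamp2 most, with as few as 16 counts in a library.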
